A study of Mus musculus with 6 samples.

Results

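Chemokines are small secreted proteins that direct the movement of leukocytes and glia, and 10 of their genes, listed by symbol among 23366 in the table, were followed in mouse cortex: Ccl2, Ccl3, Ccl4, Ccl5, Ccl12, Cxcl9, Cxcl10, Cxcl12, Cxcl16 and Cx3cl1. All 10 were found, and 9 of 10 passed the filter for testing, which asked for an average of 0.5 FPKM or more. FPKM is the number of sequenced fragments scaled to transcript length and library size, so that levels of different genes can be set side by side per length. RNA-seq was performed on cortical tissue of 3 microglia-depleted mice at d10 post depletion (A4, A5 and A6) and of 3 littermate control mice (A1 to A3), each mouse giving 1 library. All 6 mice were on a C57BL/6 background, carried 1 copy of CX3CR1-CreERT2 and, per the methods of the study, were given tamoxifen, which switches on the Cre in cells that use the CX3CR1 promoter, microglia among them. The depleted mice also carried iDTR, the Cre-dependent diphtheria toxin receptor, and received diphtheria toxin. Whether the control mice received the toxin is not given in the sources used here, so an effect of the toxin itself and one of the depletion cannot be told apart. Microglia repopulate after such a depletion, and the tissue at d10 held RNA of microglial markers at a level near that of the control mice. The ages of the mice are not given in the sources used here.

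Chemokines bind receptors of the G protein-coupled class on the cells they attract. Ccl2, Ccl12, Ccl3, Ccl4 and Ccl5 have a CC motif and draw in monocytes, macrophages and T cells, while Cxcl9 and Cxcl10 are induced by interferons and bind Cxcr3 on T cells and NK cells. Their RNA is low in resting brain and is made by microglia, astrocytes and other cells during inflammation. Cx3cl1, or fractalkine, is made by neurons and is read by Cx3cr1 on microglia, Cxcl12 guides progenitors and lymphocytes through Cxcr4, and Cxcl16 is a membrane-bound ligand of Cxcr6. These last 3 are called constitutive here, and the other 7 inducible.

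The bases before a gene's start hold much of what makes a chemokine inducible, and promoters are shown here for both CXCR3 ligands, for Ccl12 and, as a constitutive gene beside them, for Cxcl12. The RefSeq promoter table for GRCm38.p6 held 6 of 10 members, among them these 4. Each line gives the 250 bases up to the base before the start, 5′ to 3′ on the strand of the gene, from chr5:92348890-92349139 (minus strand) for Cxcl10, chr5:92328080-92328329 (minus strand) for Cxcl9, chr11:82101595-82101844 (plus strand) for Ccl12 and chr6:117168285-117168534 (plus strand) for Cxcl12. Capitals mark matches to an interferon-stimulated response element, searched as GAAA, any 2 bases and GAAA, and to a 9-letter NF-kB motif, searched as GGGANTTCC, both on either strand.
Cxcl10: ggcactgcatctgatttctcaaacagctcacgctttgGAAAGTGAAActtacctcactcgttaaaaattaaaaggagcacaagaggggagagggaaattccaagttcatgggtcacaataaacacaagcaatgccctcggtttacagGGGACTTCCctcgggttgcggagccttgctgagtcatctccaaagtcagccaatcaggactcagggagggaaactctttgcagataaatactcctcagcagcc
Cxcl9: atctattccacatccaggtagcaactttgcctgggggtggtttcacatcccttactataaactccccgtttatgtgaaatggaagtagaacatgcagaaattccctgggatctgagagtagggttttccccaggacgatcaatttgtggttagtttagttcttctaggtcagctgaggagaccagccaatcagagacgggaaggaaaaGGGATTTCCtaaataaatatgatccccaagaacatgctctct
Ccl12: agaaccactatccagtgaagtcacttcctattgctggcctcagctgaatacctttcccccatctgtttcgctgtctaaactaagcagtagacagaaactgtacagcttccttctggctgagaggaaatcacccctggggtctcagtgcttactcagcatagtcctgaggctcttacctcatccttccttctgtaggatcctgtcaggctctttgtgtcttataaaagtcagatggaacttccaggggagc
Cxcl12: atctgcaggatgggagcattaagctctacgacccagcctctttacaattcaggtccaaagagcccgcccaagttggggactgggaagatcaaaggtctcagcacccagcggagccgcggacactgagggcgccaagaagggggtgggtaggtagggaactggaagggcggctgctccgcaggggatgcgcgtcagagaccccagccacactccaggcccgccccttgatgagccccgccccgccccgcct
The interferon-stimulated response element was matched in Cxcl10, from 213 to 204 bases before the start, and in none of the other 5 promoters searched, against 2.97% of all 32817 promoters in the table. The 9-letter NF-kB motif was matched from 103 to 95 bases before the start of Cxcl10 and from 42 to 34 bases before that of Cxcl9, against 1.43% of all promoters, and it overlapped no other match. A longer NF-kB motif, GGGA, any base and TTTCC (0.357% of all promoters), and the interferon-gamma activated site GAS, TTCNNNGAA (7.01%), were matched in none of the 6. A match is a stretch of letters and says nothing on binding.

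A4 stood apart from the other libraries. Its median correlation across genes with the other mice was 0.972, against 0.982 to 0.986 for the others, and 4 genes of the Y chromosome summed to 5.56 FPKM in A4 and to at most 0.16 FPKM elsewhere. Xist was at 4.74 FPKM in A3 and from 30.9 to 46.7 FPKM in the other mice. Each chemokine tested is therefore given with and without A4. The spacing of low FPKM values put 7.17 to 20.5 M fragments behind each library, the fewest in A5. These were 14.6, 20.5 and 18.4 M in the controls A1 to A3 and 13.7, 7.17 and 11.2 M in the depleted A4 to A6. Every depleted library was thus shallower than every control library, and a value of 0 bounds the level of a gene less tightly there. Of 14385 genes tested, limma called 4 DE genes (0.0278%) at an adjusted p under 0.1, all of them higher in depleted mice.

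Of the chemokines, 0 of 9 tested passed that threshold, and differences are therefore given as values. By limma at an unadjusted p under 0.05, 3 were higher in depleted mice (Ccl4, Ccl5 and Cxcl10), against 4.79% of all genes tested, and 0 were lower, against 5.74%, or 10.5% in either direction. In 5 of all 10 (Ccl4, Ccl5, Ccl12, Cxcl9 and Cxcl10) every depleted mouse lay above every control mouse, which held for 6.89% of the 18915 genes above 0 in any mouse. For Ccl4 and Ccl12, A5 held fewer fragments than A3, about 2 against 3 and 4 against 5. There the order rests on the scaling to library size. In 0 of 10 every depleted mouse lay below, against 8.2%. Over the genes tested alone these shares were 8.21% and 9.38%. For Ccl2, Ccl4, Ccl5 and Ccl12 the control mean was under 0.5 FPKM, so that they entered the test only through the depleted mice. The tested chemokines had a median log2 fold change of 0.69, or 0.34 without A4, beside -0.0085 for all genes tested.

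**Figure D1:**
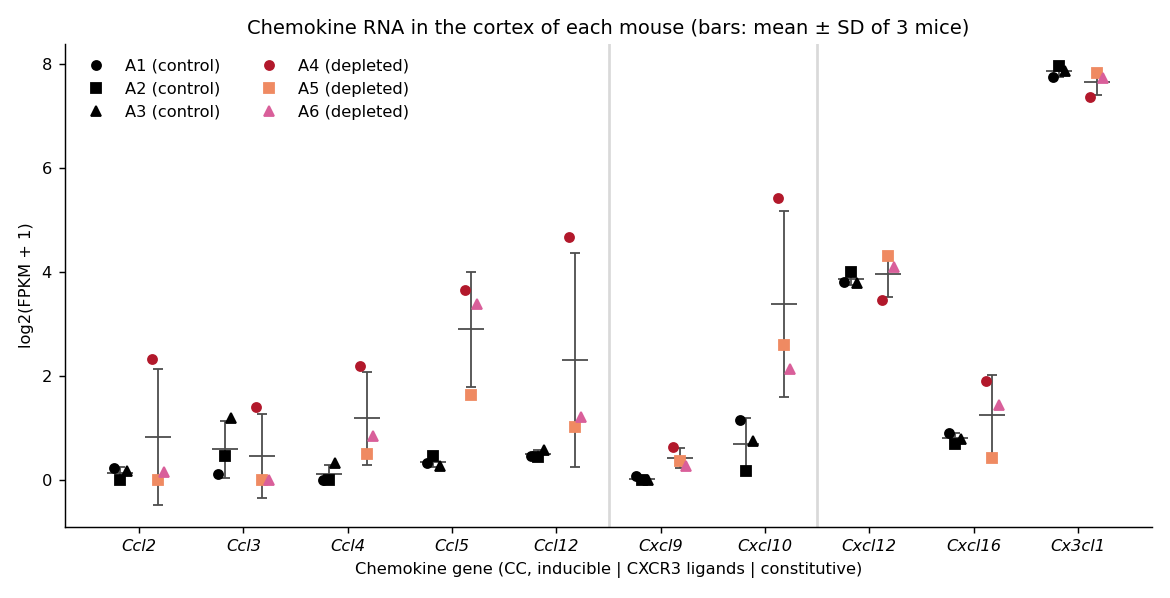
RNA of the 10 chemokines in each mouse, as log2(FPKM + 1), with the mean and SD of 3 mice per group; vertical lines part the inducible CC chemokines, the CXCR3 ligands and the constitutive chemokines. A4 was the highest of all mice in 8 of 10 chemokines, and Cx3cl1 lay far above the rest in every mouse.

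Cxcl10 (chr5:92346638-92348889, minus strand, GENCODE M21 on GRCm38), the interferon-induced ligand of Cxcr3 whose promoter carries both motifs, had the highest mean level of the inducible chemokines in depleted mice, though without A4 its mean was 4.22 FPKM and that of Ccl5 was 5.80 FPKM. It measured 1.23, 0.13 and 0.69 FPKM in the controls A1 to A3 against 42.11, 5.07 and 3.38 FPKM in the depleted A4 to A6. The groups did not overlap, and A4 was 8.31 times A5 and 12.5 times A6. On the log2(FPKM + 1) scale, which understates the change of low genes, the difference was 2.69 (standard error 0.75, 95% interval 0.98 to 4.40, adjusted p = 0.370 in limma). Without A4 it was 1.67 (standard error 0.29, adjusted p = 0.133 in limma), and over all alternatives the adjusted p ran from 0.133 to 0.892. The ratio of group means was 24.7, and 6.18 with A5 and A6 alone. Exons of Cxcl10 overlap Art3 on the opposite strand, and the sources used here do not state whether strand was used in counting. Art3 measured 1.17, 1.40 and 2.01 FPKM in the controls against 1.11, 0.54 and 0.74 FPKM in the depleted A4 to A6. Its log2 difference was -0.49 (adjusted p = 0.440 in limma), and among depleted mice it was highest in A4. The part of this overlap in the values of Cxcl10 was not tested.

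Cxcl9 (chr5:92321347-92328079, minus strand), the neighbouring ligand of Cxcr3, followed the same order of groups at a far lower level. It measured 0.05, 0 and 0 FPKM in the controls A1 to A3 against 0.55, 0.29 and 0.21 FPKM in the depleted A4 to A6. These values rest on about 2, 0 and 0 fragments in control mice and 22, 6 and 7 in depleted mice, and the groups did not overlap. An exact two-sided permutation test gave p = 0.1, the smallest that 3 against 3 mice allow. Without A4 the depleted mean was 0.25 FPKM, and A5 and A6 still lay above the controls. The mean over all mice was 0.183 FPKM, below the filter. Fitted with no filter, the log2 difference was 0.40 with a standard error of 0.10 (limma, adjusted p = 0.439), beside 0.0159% of 18915 genes called in that fit.

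Ccl5 (chr11:83525778-83530518, minus strand), or RANTES, a ligand of Ccr1 and Ccr3, was the inducible chemokine in which A4 held the smallest share of the depleted sum, 50.2%. It measured 0.25, 0.37 and 0.20 FPKM in the controls A1 to A3 against 11.67, 2.10 and 9.50 FPKM in the depleted A4 to A6. A6 was near A4, while A5, the shallowest library, was 5.56 times below A4 yet above all control mice. The difference was 2.55 on the log2 scale (95% interval 1.50 to 3.60, adjusted p = 0.283 in limma) and 2.17 without A4 (adjusted p = 0.170 in limma). Without A5 it was 3.18 with an adjusted p of 0.00141 in limma, and with array weights, which down-weight discordant libraries, the adjusted p was 0.095. Over all alternatives the adjusted p ran from 0.00141 to 0.892. The fragments behind these values numbered about 2, 4 and 2 in control mice and 85, 8 and 57 in depleted mice, and the ratio of group means was 28.4.

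Ccl12 (chr11:82101845-82103400, plus strand), also known as MCP-5, and Ccl2 (chr11:82035571-82037453, plus strand), or MCP-1, are both monocyte attractants that act through Ccr2, and both were dominated by A4. Ccl12 measured 0.38, 0.36 and 0.50 FPKM in the controls A1 to A3 against 24.59, 1.04 and 1.32 FPKM in the depleted A4 to A6. All depleted mice lay above all control mice, but A4 held 91.2% of the depleted sum. The difference was 1.81 on the log2 scale (95% interval -0.088 to 3.71, adjusted p = 0.492 in limma) and 0.62 without A4 (standard error 0.16). The controls A1 to A3 rest on about 3, 4 and 5 fragments of Ccl12, and A5 and A6 on about 4 and 8. Ccl2 measured 0.17, 0 and 0.13 FPKM in the controls A1 to A3 against 4.02, 0 and 0.11 FPKM in the depleted A4 to A6. Outside A4 it stayed at about 2 fragments or fewer in every mouse, and the groups overlapped. The difference of Ccl2 was 0.69 (95% interval -0.55 to 1.93, adjusted p = 0.673 in limma) and turned to -0.059 without A4. In A5, where Ccl2 was listed at 0, 3 fragments would be worth 0.514 FPKM, so a level like that of the control mice was not detectable there.

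Ccl4 (chr11:83662584-83664683, plus strand) and Ccl3 (chr11:83647844-83649355, minus strand), the macrophage inflammatory proteins MIP-1β and MIP-1α, are neighbouring genes whose products attract macrophages and T cells. Ccl4 measured 0, 0 and 0.25 FPKM in the controls A1 to A3 against 3.60, 0.42 and 0.80 FPKM in the depleted A4 to A6. The groups did not overlap, on about 0, 0 and 3 fragments against 33, 2 and 6. The difference was 1.08 on the log2 scale (95% interval 0.18 to 1.98, adjusted p = 0.418 in limma) and 0.57 without A4 (standard error 0.20). Ccl3 measured 0.09, 0.37 and 1.30 FPKM in the controls A1 to A3 against 1.64, 0 and 0 FPKM in the depleted A4 to A6. Control mice spanned nearly the whole range of Ccl3, with A4 just above A3 and both other depleted mice listed at 0. In A5 and A6, 3 fragments of Ccl3 would be worth 0.546 and 0.349 FPKM. A level like that of A1 lay below this limit in both, and one like that of A2 lay below it in A5. Its difference was -0.13 (95% interval -1.08 to 0.83, adjusted p = 0.938 in limma). Without A4 it was -0.59 (adjusted p = 0.457 in limma), and its sign turned when A3, A5 or A6 was left out, to 0.18, 0.11 and 0.11.

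**Figure D2:**
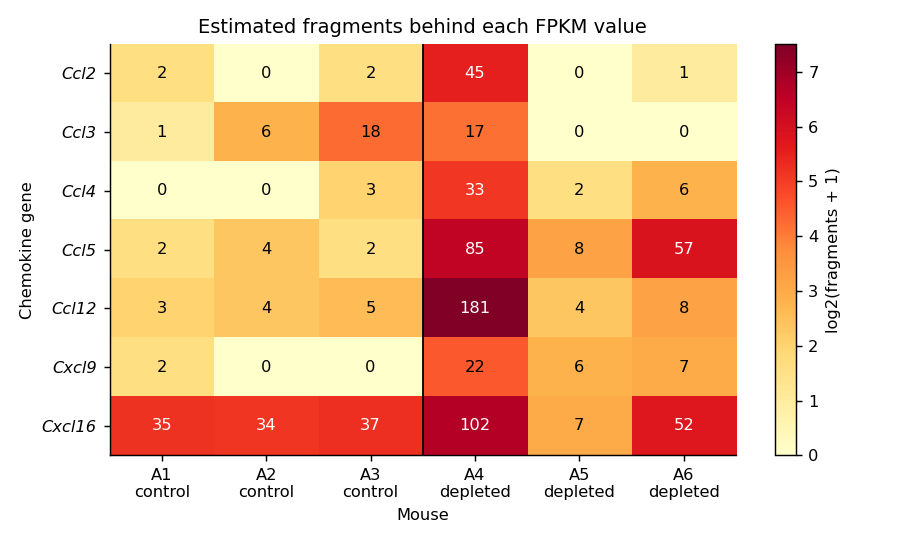
Estimated number of fragments behind each FPKM value for the 7 chemokines with a single coding transcript, by mouse; colour is log2(fragments + 1). Most values of control mice rest on 6 fragments or fewer, except those of Cxcl16 (34 to 37) and Ccl3 in A3 (18), and the highest is Ccl12 in A4 (181).

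Cx3cl1 (chr8:94772009-94782427, plus strand), the neuronal ligand of the microglial receptor Cx3cr1, was the most abundant chemokine in every mouse. It measured 215.62, 248.72 and 231.12 FPKM in the controls A1 to A3 against 165.10, 227.49 and 211.08 FPKM in the depleted A4 to A6. A5 lay within the control range, A6 just under it and A4 well below. The difference was -0.21 on the log2 scale (95% interval -0.49 to 0.059, adjusted p = 0.561 in limma; exact two-sided permutation test, p = 0.2) and -0.078 without A4. At this level of expression the interval bounds the difference more closely than for any other tested chemokine.

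Cxcl12 (chr6:117168535-117181367, plus strand), also known as SDF-1, came second in control mice. It measured 13.09, 14.94 and 12.78 FPKM in the controls A1 to A3 against 10.05, 18.75 and 16.11 FPKM in the depleted A4 to A6. A4 lay below all control mice and A5 and A6 above them, so that the depleted mice parted in both directions. The difference was 0.090 (95% interval -0.36 to 0.54, adjusted p = 0.898 in limma), 0.34 without A4 (adjusted p = 0.282 in limma) and -0.084 without A5. Cxcl16 (chr11:70453983-70459984, minus strand) measured 0.88, 0.62 and 0.74 FPKM in the controls A1 to A3 against 2.76, 0.34 and 1.73 FPKM in the depleted A4 to A6. A5 was the lowest of all mice and A4 and A6 the highest, and the difference was 0.46 (95% interval -0.31 to 1.23, adjusted p = 0.652 in limma) and 0.13 without A4. Exons of Cxcl16 overlap Zmynd15 on the opposite strand, which was at most 0.48 FPKM in any mouse. None of the 75-base windows of the 10 chemokines' coding transcripts, read in the sense direction, occurs in a transcript of another gene. In that direction no exact read of that length is shared with a related chemokine. The reverse complement was not searched, so the overlaps with Art3 and Zmynd15 on the opposite strand are not covered.

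**Figure D3:**
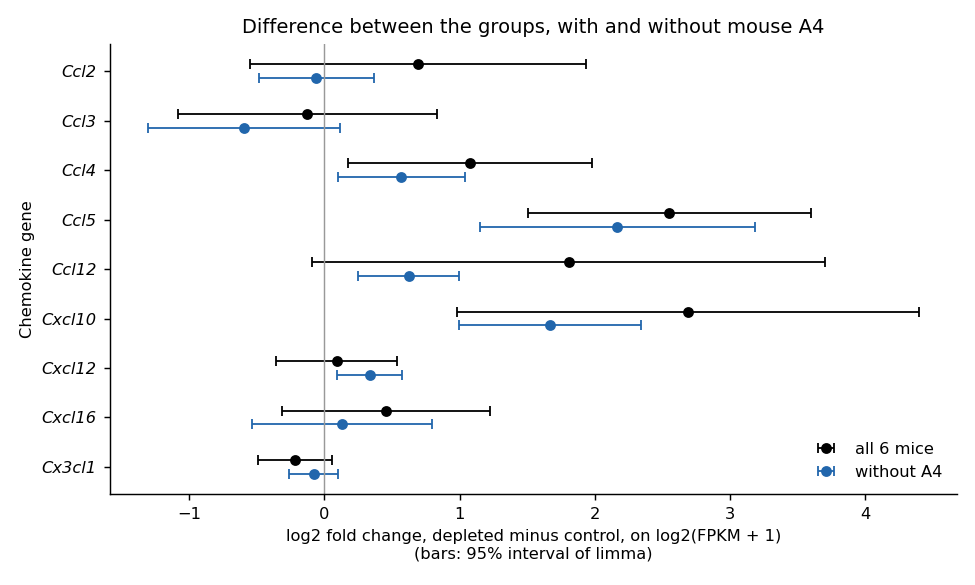
Difference between depleted and control mice on the log2(FPKM + 1) scale for the 9 tested chemokines, with 95% intervals of limma, for all 6 mice and without A4. Ccl5 and Cxcl10 lie highest in both fits, and the interval of Ccl12 spans 0 only with A4.

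In sum over the 7 inducible chemokines, control mice held 2.17, 1.23 and 3.07 FPKM and depleted mice 88.18, 8.92 and 15.32 FPKM in A4, A5 and A6. The 3 constitutive chemokines summed to 229.59, 264.28 and 244.64 FPKM and to 177.91, 246.58 and 228.92 FPKM. Inducible chemokines thus made up 0.463% to 1.24% of the RNA of all 10 in control mice and 33.1%, 3.49% and 6.27% in A4, A5 and A6. In the bulk tissue, more cells of a type and more RNA per cell cannot be told apart. The leading gene differed between the depleted mice: Cxcl10 was 47.8% and 56.8% of the inducible sum in A4 and A5 and 22.1% in A6, where Ccl5 was 62.0%. Ccl12 was 27.9% of it in A4 but 11.7% in A5 and 8.62% in A6. In control mice Cx3cl1 lay above Cxcl12, and Cxcl12 above Cxcl16, without overlap. Below them Cxcl16, Cxcl10, Ccl3 and Ccl12 each overlapped the next down to Ccl5, which did not overlap Ccl2. That gap, from 0.20 FPKM of Ccl5 in A3 to 0.17 FPKM of Ccl2 in A1, rests on about 2 fragments each. Ccl2, Ccl4 and Cxcl9 overlapped again. In depleted mice Cx3cl1 stood alone, and each of the next 8, from Cxcl10 and Cxcl12 down to Ccl3, overlapped the one after it.

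Except for Ackr1, the receptors named here were at low levels in both groups. Ackr1, listed under its older symbol Darc, measured 29.54, 34.81 and 36.18 FPKM in the controls A1 to A3. In the depleted A4 to A6 it measured 35.77, 37.36 and 40.98 FPKM, a log2 difference of 0.18 (adjusted p = 0.550 in limma). Of the receptors tested in limma, 0 passed the threshold, nor did any at an unadjusted p under 0.05. Cx3cr1, the receptor of Cx3cl1, measured 4.74, 3.99 and 4.54 FPKM in the controls against 4.91, 3.94 and 4.72 FPKM in the depleted A4 to A6, a log2 difference of 0.025 (95% interval -0.26 to 0.31, adjusted p = 0.960 in limma). Of the receptors of Cxcl12, Cxcr4 differed by -0.052 and Ackr3, a scavenging receptor listed under its older symbol Cxcr7, by 0.086 (adjusted p = 0.943 and 0.869 in limma). The other receptors named here stayed below the filter. Ccr1 was at most 0.38 FPKM, Ccr2 at most 0.24, Cxcr3 at most 0.39, Cxcr6 at most 0.09 and Ccr3 at most 0.02 FPKM in any mouse. Cxcr3, the receptor of Cxcl9 and Cxcl10, measured 0.04, 0.03 and 0 FPKM in the controls against 0, 0.17 and 0.39 FPKM in A4 to A6. It was thus listed at 0 in A4, where both ligands were highest, and lay above all controls in A5 and A6. The fragments behind these low values were not estimated.

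**Figure D4:**
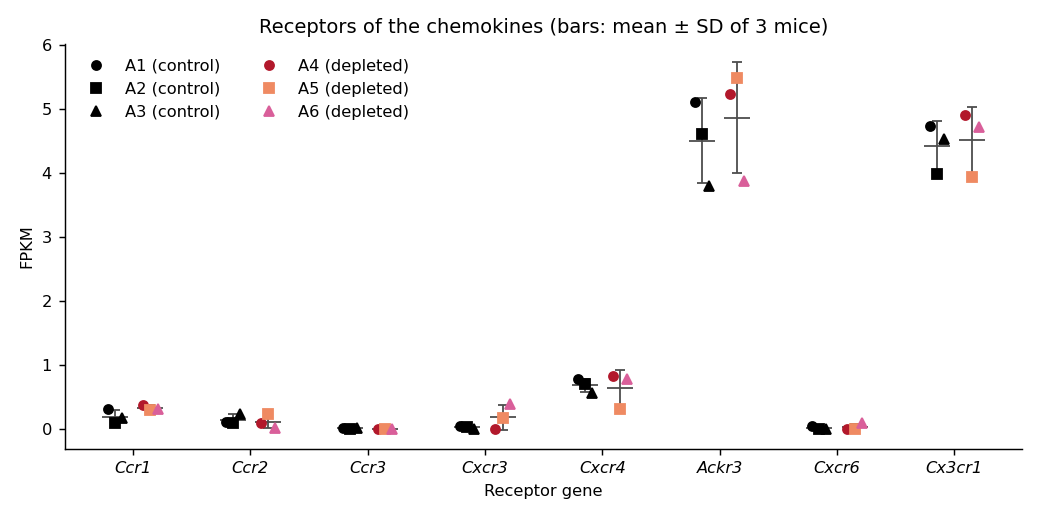
FPKM of 8 receptors of the chemokines in each mouse, with the mean and SD of 3 mice per group. The groups overlapped for every receptor plotted, and only Ackr3 and Cx3cr1 exceeded 2 FPKM.

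Among 30 other chemokines in the table, 12 were tested, 0 passed the threshold, and 3 were higher and 1 lower at an unadjusted p under 0.05 in limma (4.79% and 5.74% of all genes tested). The groups did not overlap in 5 of the 12, all higher in depleted mice (8.21% of all genes tested): Ccl17, Ccl25, Ccl7, Ccl9 and Ccl28. Ccl7, with a control mean of 0.293 FPKM, entered the test only through the depleted mice. Ccl17, a ligand of Ccr4, measured 0.66, 0.66 and 0.74 FPKM in the controls against 11.77, 1.09 and 2.93 FPKM in the depleted A4 to A6, with A4 highest as for the inducible members, and its log2 difference of 1.48 was 0.77 without A4. Ccl25, known for its role in thymus and gut, was at 3.33, 3.39 and 3.07 FPKM against 5.35, 4.41 and 6.25 FPKM, a difference of 0.56 with or without A4 (adjusted p = 0.370 in limma). Ccl7, Ccl9 and Ccl28 differed by 0.55, 0.51 and 0.32. The 12 had a median of 0.38, or 0.22 without A4. Of 13 genes that shed chemokines or carry the receptor signal, 0 passed. The groups did not overlap for 1 higher gene, Rac2 (0.49, or 0.22 without A4), and 1 lower gene, Arrb1 (-0.18, or -0.12 without A4), beside 8.21% and 9.38% of all genes tested, shares near these.

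Of 19 genes linked to the induction of chemokines, among them interferon receptors and the NF-kB inhibitor Nfkbia, 15 were tested and 0 passed. At an unadjusted p under 0.05 in limma 6 were higher, the same 6 whose groups did not overlap, against 4.79% and 8.21% of all genes tested. Irf9, the part of the interferon-activated complex that binds the response element searched above, measured 5.56, 4.56 and 4.90 FPKM in the controls against 24.95, 7.17 and 7.88 FPKM in the depleted A4 to A6. A4 was the highest, as for Cxcl10, and the log2 difference was 1.04, or 0.51 without A4 (adjusted p = 0.418 in limma with all mice). Among the others, Irf7, Stat2, Relb and Ifngr1 differed by 2.12, 0.75, 0.55 and 0.33, and by 1.30, 0.41, 0.37 and 0.35 without A4. Of the 15, 10 were higher on average and 5 lower. The lower genes Irf1, Irf3, Rela, Ifnar1 and Ifngr2 differed by -0.15, -0.37, -0.25, -0.0027 and -0.036, with overlapping groups. Without A4 these differences were -0.57, -0.18, -0.43, -0.021 and -0.0092. Ifng, which encodes the interferon that induces Cxcl9, and Tnf were listed at 0 in every mouse, and Ifnb1 was above 0 in A4 alone, at 0.28 FPKM. The median of the 15 was 0.073.

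Markers of the cells that make or follow chemokines are given beside these values, and their part in the differences was not tested. The 9 microglial markers summed to 98.5 to 120 FPKM in control mice and 103 to 133 FPKM in depleted mice. Aif1 and Siglech were among those higher without overlap (0.74 and 0.24 on the log2 scale), and P2ry12 and Fcrls were lower without overlap (-0.35 and -0.90), with 0 passing the threshold in limma. Gfap, an astrocyte marker, measured 88.28, 64.48 and 84.21 FPKM in the controls against 300.31, 108.51 and 120.13 FPKM in the depleted A4 to A6, with A4 highest, as for 8 of the 10 chemokines. It alone of 5 astrocyte markers was higher on average: Gja1 was lower without overlap (-0.19), and Aldh1l1, Aqp4 and Slc1a3 differed by -0.21, -0.12 and -0.043. The 5 summed to 312 to 376 FPKM against 362 to 542 FPKM, with Gfap setting the higher sum. Monocyte markers summed to 12.8 to 16.0 FPKM in control mice and 13.0 to 20.6 FPKM in depleted mice. The largest in control mice was Fn1, with a mean of 7.16 FPKM. The 5 tested went both ways, with overlapping groups. Ly6c2 and S100a4 were higher on average (0.62 and 0.66), and Fn1, S100a8 and S100a9 lower (-0.13, -0.19 and -0.64). Border macrophage markers summed to 4.81 to 6.66 FPKM in control mice and 3.14 to 5.81 FPKM in depleted mice. Of lymphocytes, Cd3e was at 0 in all 3 depleted mice, Ncr1 and Ms4a1 were at 0 in all mice, and Cd3d reached 1.08 FPKM in A4. T cell markers summed to 2.78 to 3.50 FPKM against 2.36 to 3.98 FPKM, mostly from Cd4, NK cell markers to at most 0.47 FPKM and B cell markers to at most 1.25 FPKM. Endothelial markers summed to 40.8 to 46.3 FPKM in control mice and 48.2 to 52.5 FPKM in depleted mice, with Cldn5 higher without overlap (0.31). Neuronal markers, which fit the labelled cortex, summed to 1892 to 2213 FPKM against 1925 to 2087 FPKM. Markers of choroid plexus, which is no part of cortex, summed to 166 to 323 FPKM in control mice and 44.6 to 69.0 FPKM in depleted mice. These sums were mostly from Ttr. Ttr and Aqp1 were lower without overlap (-1.91 and -0.58). Folr1, Clic6 and Kl were lower on average with overlapping groups (-0.98, -0.43 and -0.23).

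Over the 6 mice, the genes whose log2 values were most like those of Cxcl10 were Clcc1, C4b and Ifit3 (Pearson's r = 0.998, 0.996 and 0.995). Those most like Ccl5 were Smc6, Clec7a and Nudcd2 (r = 0.999, 0.993 and 0.992), and those most like Cx3cl1 were Filip1, Ube2ql1 and Ncoa5 (r = 0.995, 0.993 and 0.992). These are the 3 highest of 14364 genes for each, over 6 points that share group and library, and are given as a description with no test.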

How the data were processed

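Cortical poly(A) RNA of 6 mice was analysed, 1 library per mouse, grouped by the labels. Paired-end reads of 75 bp had been aligned by the authors with TopHat, and known transcripts quantified with RSEM. The submitters' processing notes also name DESeq and the build mm9. Tool versions, annotation and strand use in counting are not given in the sources used here. Deposited were FPKM values by gene symbol, to which the authors applied TMM scaling and which carry 2 decimals. Levels are thus relative to the whole RNA of a library, and values of a few fragments are coarse.

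All 6 columns were used, with 0 columns left unmapped. The 14385 genes averaging 0.5 FPKM or more were put on the log2(FPKM + 1) scale and fitted in R 4.3.3 with limma 3.58.1 (lmFit, eBayes with trend), adjusted by Benjamini-Hochberg over all genes tested, at a threshold of 0.1 and with no covariate. For single genes an exact permutation test of means, two-sided, was added. Raw counts were not used here, so no count test was run. The fit was checked on simulated data.

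Fragments were estimated from low FPKM values, which are whole multiples of 1 fragment, with lengths from GENCODE M21; 20 of 21 chemokine values of 1 to 10 fragments lay within 0.25 of a whole number. Estimates and the limit of 3 fragments cover counting error only. Positions are those of GENCODE M21 on GRCm38, and promoters those of RefSeq on GRCm38.p6; the deposited table holds no coordinates.

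The chemokines, the gene lists and the tests were chosen with earlier results of these data known. Named were all 10 chemokines and their receptors, the tested genes of each list whose groups do not overlap, and for 3 chemokines the 3 genes most alike. Art3, Zmynd15, Xist, the lymphocyte markers, Ifng, Tnf and Ifnb1 were added after their values were seen. So were Ackr1, Nfkbia, the 5 lower genes of the inducer list and the 9-letter NF-kB motif. The single monocyte markers and Folr1, Clic6 and Kl were also added then. A few genes that this rule names are not reported here. Other steps ran in Python 3.11.15 with pandas 2.3.3, scipy 1.17.1 and matplotlib 3.10.9.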

Additional observations from a re-analysis of the deposited data

How the results depend on the processing

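The 15 alternatives were leaving out each mouse in turn, array weights, robust eBayes, eBayes without trend, a threshold of 0.05, median-of-ratios scaling, TPM, a filter at 1 FPKM or none, and 0.1 as pseudocount. With array weights 1 chemokine (Ccl5) and 20 genes in all passed the threshold, and with eBayes without trend 2 genes did. Leaving out 1 mouse gave 0 to 1 chemokines and 2 to 29 genes past the threshold, and 2 to 6 chemokines and 786 to 2056 genes at an unadjusted p under 0.05; 5 chemokines were so without A4 and 6 without A5. Of 132 values of single chemokines, 125 kept their direction and their side of the threshold, 2 of Ccl5 passed it (array weights and without A5), and 5 turned in sign. The last were Ccl2 without A4 (-0.059), Ccl3 without A3, A5 or A6 (0.18, 0.11 and 0.11) and Cxcl12 without A5 (-0.084). Over leaving out each mouse, the log2 difference ran from 2.17 to 3.18 for Ccl5, 1.67 to 3.32 for Cxcl10, -0.059 to 1.10 for Ccl2, -0.59 to 0.18 for Ccl3 and -0.084 to 0.34 for Cxcl12. With the filter at 1 FPKM, Ccl2, Ccl3 and Ccl4 fell below it and gave no value. Rescaling moved the median of all genes by less than 0.01. The cause of these shifts was not tested. No paired analysis was possible because the groups share no replicate numbers.

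With 3 mice a group and A4 apart from the others, intervals of the inducible chemokines are wide, and control levels of most of them rest on a few fragments, so that fold changes depend on the pseudocount: with 0.1, the difference of Ccl5 was 4.10 and that of Cxcl10 was 3.87.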
